A study of Mus musculus with 12 samples.

Results

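Complex I of the mitochondrial respiratory chain was described through the nuclear genes for its subunits in whole retina of diabetic and control mice. Members were the genes whose symbols start with Nduf, followed by a, ab, b, c, s or v and a number, with the assembly factors (Ndufaf) left out. By the annotation of the array platform there were 36 of them among 24570 named genes. Ndufs5, Ndufb4, Ndufb4b and Ndufb4c, as well as the subunits encoded by mitochondrial DNA, were not analysed here. The rule uses symbols alone, but the set was taken up with earlier results of these data known.

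The diabetic group held 6 male C57BL6/J mice, a strain the protocol calls outbred, that received streptozotocin, which destroys pancreatic beta cells, as an intraperitoneal dose of 160 mg/kg. The protocol gives 8 weeks as their age and 24 to 26 g as their weight at injection, and glucose in blood had to exceed 15 mM after 7 days. The control group held 6 normoglycaemic mice of the same strain without streptozotocin, and the labels name no sham injection, so effects of the toxin and of high glucose cannot be told apart. Sample descriptions place the diabetic retinas 6 weeks after induction, and 6 weeks are recorded for the control group as well. The series text gives 6 weeks as the age of the mice, so age at death is not settled here. Each animal had 1 array, and values are log2 RMA values, in which a step of 1 is a doubling. RMA corrects background, forces the arrays onto 1 distribution and joins the probes of a gene. Levels of different genes are therefore not set against each other.

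Complex I takes electrons from NADH, passes them along iron-sulphur clusters to ubiquinone and pumps protons out of the matrix. It is shaped like an L. The N module at the tip of the matrix arm oxidises NADH, the Q module below it reduces ubiquinone, and the membrane arm pumps protons. Photoreceptors pack mitochondria into their inner segments and have a high demand for respiration. In whole retina, fewer cells of a type and less RNA per cell cannot be told apart.

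Of the 36 genes, 1 rose and 3 fell in diabetic retinas past limma's test at an adjusted p under 0.05. Over all genes this share was 3.24% (797 of 24570), with 1.47% higher and 1.77% lower. Ndufv1, whose product binds NADH and the flavin of the N module, rose by 0.17 ± 0.04 on the log2 scale (SE, n = 6 per group), 1.12-fold (adjusted p = 0.0348 in limma). Its partner in the same flavoprotein, Ndufv2, fell by 0.15 ± 0.03 (adjusted p = 0.0350). Ndufa5 of the Q module fell by 0.13 ± 0.03 (adjusted p = 0.0255). Ndufa1, a small membrane arm subunit needed for assembly, fell by 0.31 ± 0.05 (adjusted p = 0.0104), to 0.807 of the control level.

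The other 32 genes did not pass, and 12 of the 36 had values above 0, 23 below 0 and 1 at 0. The median log2 change was -0.03, against -0.0018 over all genes. Changes below 0 made up 63.9% of the members and 51.8% of all genes. At an unadjusted p under 0.05 there were 17 members, 5 higher and 12 lower. The shares over all genes were 21.0% in either direction, 9.76% higher and 11.3% lower, and 27.7% in either direction among the genes at or above the array median of 5.73, of which 5.14% passed after adjustment. In 32 of the 36 genes the mean lay at or above this median. Ndufa11, Ndufb3, Ndufb11 and Ndufa4l2 lay below it.

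**Figure D1:**
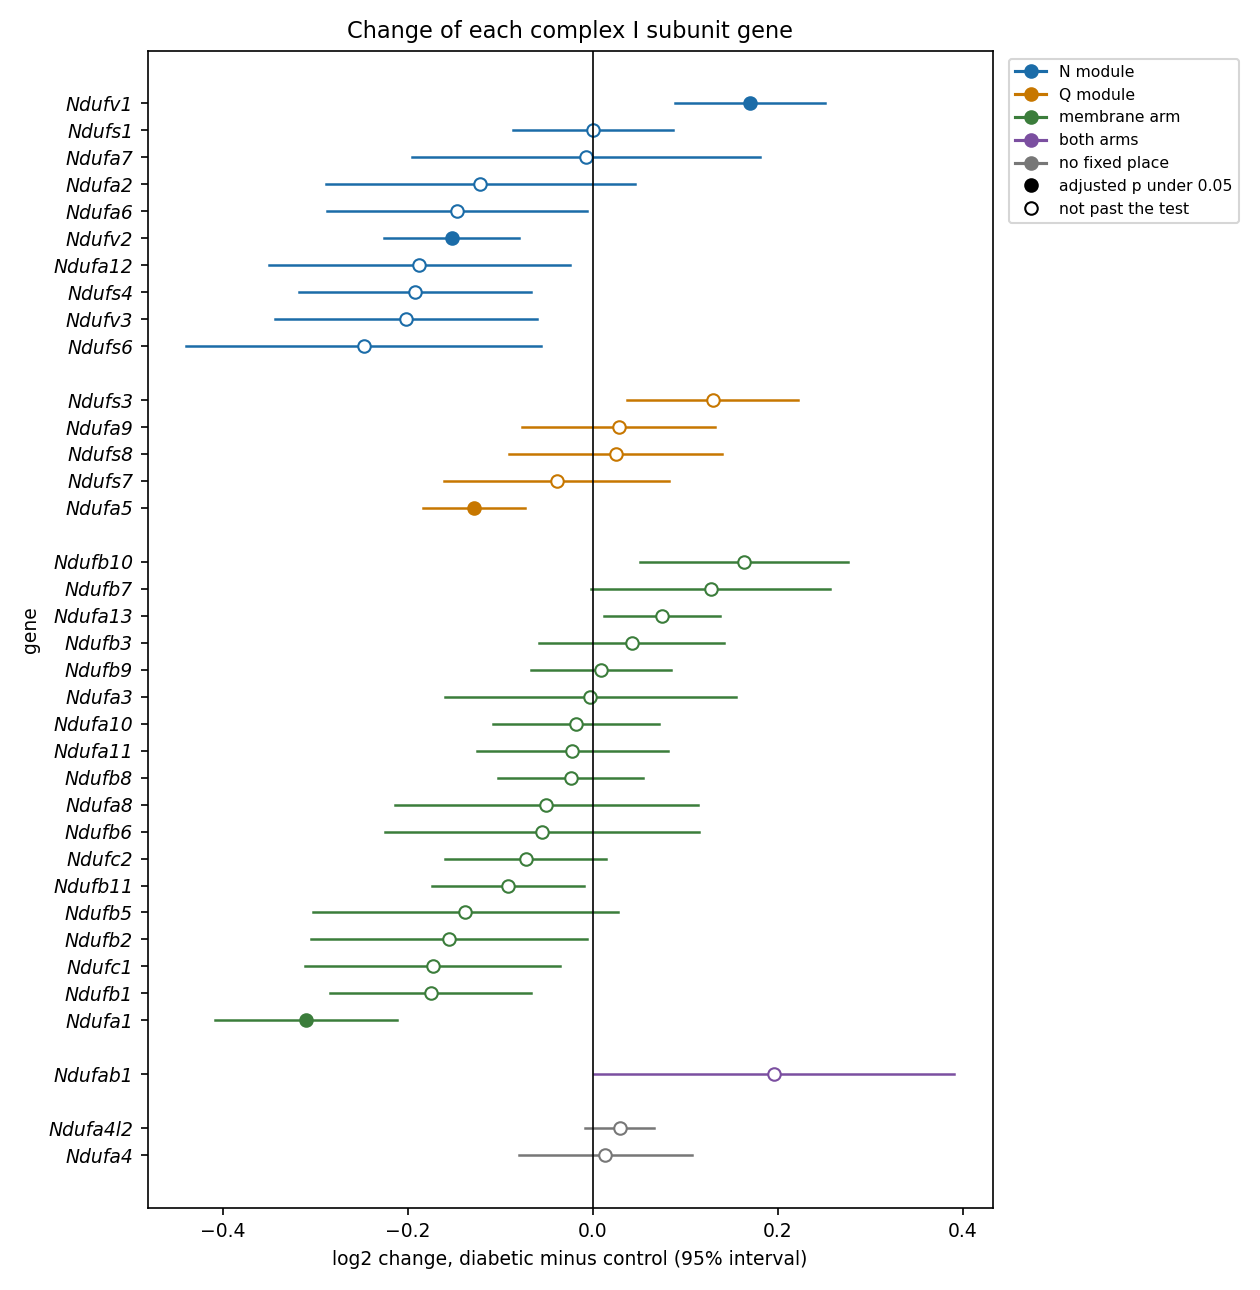
Log2 change of each of the 36 genes, diabetic minus control (points), with 95% intervals from limma (lines), grouped by module and colour. Filled points mark the genes past the adjusted threshold: Ndufv1 at 0.17, Ndufv2 at -0.15, Ndufa5 at -0.13 and Ndufa1 at -0.31.

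The proximal promoters were searched for letters that some of these genes share. Nuclear subunit genes are scattered over many chromosomes and are known to share regulators. RefSeq windows of 250 bases before to 50 bases after the annotated start (GRCm38.p6) were at hand for 32 of the 36 genes. For Ndufa5 and Ndufa7, which have 2 windows each, the first listed was used. The median G+C content was 59.17% in members and 52.67% in the 27025 genes with a window. The letters searched on both strands were GCGCA and GCGC with any 1 base between them for NRF1, CCGGAAG for GABP, AAGATGGC for YY1, GGGCGG for SP1, TGACGTCA for the cyclic AMP response element (CRE) and TCAAGGTCA for ERRA. Matches of different motifs overlapped in 1 place in the members, an SP1 with a GABP match in Ndufs3.

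YY1, a zinc-finger factor that works with the coactivator PGC-1alpha on mitochondrial genes, had, of the 6 motifs, the widest gap in share between members and all windows. A match was found in 7 of 32 members (21.9%) and in 2.88% of all windows. In all 7 members it lay between 23 and 46 bases into the transcript, counted from 1 at the start base, and on the coding strand. This stretch was set after the matches were seen. It held a match in 0.522% of all windows, and 18.1% of all windows with a match had one there. NRF1, a factor of nuclear respiratory genes, had a match in 5 members (15.6%) and in 4.78% of all windows. GABP, an ETS factor, had one in 4 members (12.5%, against 9.12%), the CRE in 3 (9.38%, against 1.88%), SP1 in 14 (43.8%, against 35.9%) and ERRA in 0 (against 0.407%). At least 1 match to NRF1, GABP or YY1 was found in 15 of the 32 members (46.9%, against 15.2%), and 17 held none. The windows of all genes were not matched to the members by level or G+C content. A match is a description and not a site. The YY1 letters hold ATG, and whether this is the start codon of these genes was not looked up.

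The 7 stretches with the YY1 letters in capitals are shown because they align at nearly the same place in genes of all 3 modules:
Ndufa3 (chr7:3617381-3617406, plus strand): tcgccgccaagaacAAGATGGCcggg
Ndufa9 (chr6:126849104-126849129, minus strand): aggcattgtgggagAAGATGGCggcc
Ndufb8 (chr19:44555393-44555418, minus strand): ccgcggagaaggtgAAGATGGCtgcc
Ndufc1 (chr3:51408922-51408947, minus strand): ggagcctgcggaacAAGATGGCgccg
Ndufs4 (chr13:114388048-114388073, minus strand): cgtttgcctacaggAAGATGGCggcg
Ndufs6 (chr13:73328438-73328463, minus strand): caagggtcaccggcAAGATGGCggcg
Ndufs7 (chr10:80249459-80249484, plus strand): tgaaggccgaggccAAGATGGCggcg

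**Figure D2:**
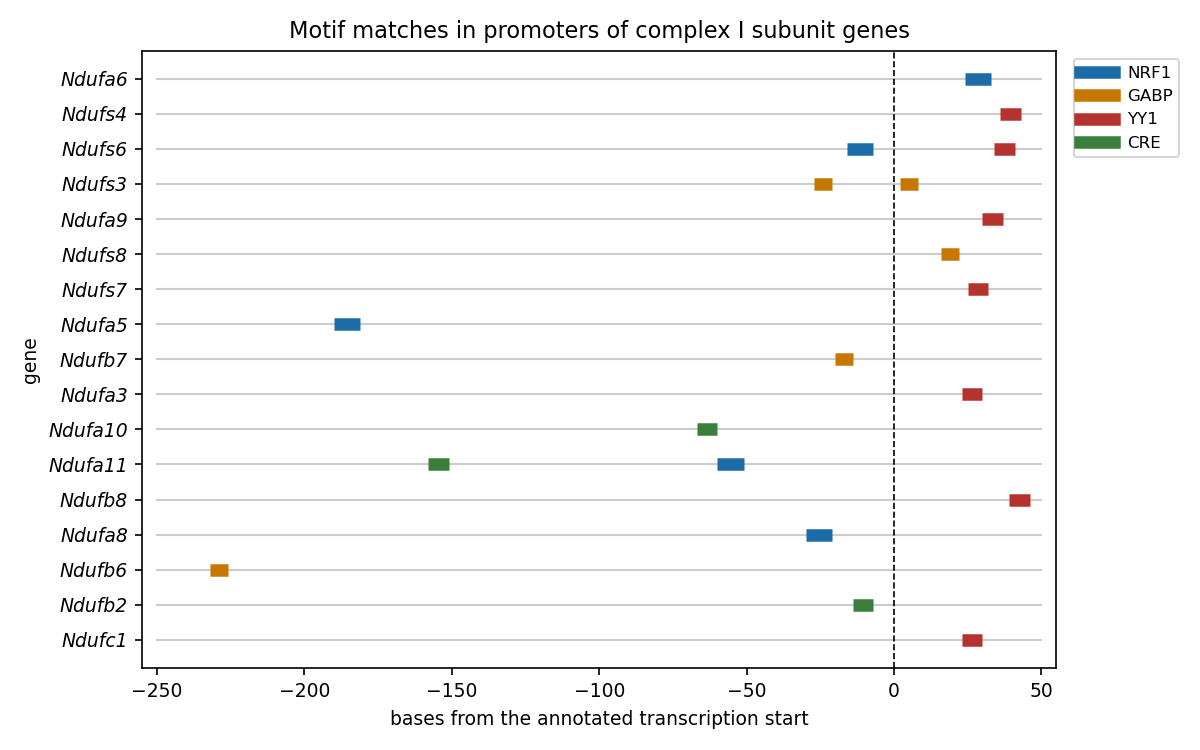
Matches to the NRF1, GABP, YY1 and CRE letters (coloured bars) in the 17 member promoters that hold at least 1 of them, by distance in bases from the annotated start (dashed line). The 7 YY1 matches stack between 23 and 46 bases downstream of the start, while the others are spread.

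Of these 7 genes 0 passed limma's test between the groups, and 3 had an unadjusted p under 0.05. The share at this unadjusted p was 47.2% over all 36 members and 21.0% over all genes. Their log2 changes were -0.25 for Ndufs6, -0.19 for Ndufs4, -0.17 for Ndufc1, -0.04 for Ndufs7, -0.02 for Ndufb8, -0.0026 for Ndufa3 and 0.03 for Ndufa9. The 4 genes that passed had no YY1, GABP or CRE match in their windows, and Ndufa5 alone had an NRF1 match. Their promoters are given in full, with NRF1 and SP1 matches in capitals (CCGCCC is the SP1 motif on the other strand):
Ndufa1 (chrX:37191189-37191488, minus strand): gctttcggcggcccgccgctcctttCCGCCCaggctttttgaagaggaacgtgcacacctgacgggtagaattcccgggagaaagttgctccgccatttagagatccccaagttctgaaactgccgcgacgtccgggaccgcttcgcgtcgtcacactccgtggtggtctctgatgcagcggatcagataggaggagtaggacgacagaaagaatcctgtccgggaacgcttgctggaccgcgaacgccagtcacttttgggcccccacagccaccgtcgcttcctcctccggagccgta
Ndufa5 (chr6:24527477-24527776, minus strand): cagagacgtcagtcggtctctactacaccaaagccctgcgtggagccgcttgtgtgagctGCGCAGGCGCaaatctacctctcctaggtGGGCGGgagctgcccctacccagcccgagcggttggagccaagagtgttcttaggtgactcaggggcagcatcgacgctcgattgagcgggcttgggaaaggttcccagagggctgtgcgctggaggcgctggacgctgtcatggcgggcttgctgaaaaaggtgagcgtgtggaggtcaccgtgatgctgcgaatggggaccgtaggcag
Ndufv1 (chr19:4012706-4013005, minus strand): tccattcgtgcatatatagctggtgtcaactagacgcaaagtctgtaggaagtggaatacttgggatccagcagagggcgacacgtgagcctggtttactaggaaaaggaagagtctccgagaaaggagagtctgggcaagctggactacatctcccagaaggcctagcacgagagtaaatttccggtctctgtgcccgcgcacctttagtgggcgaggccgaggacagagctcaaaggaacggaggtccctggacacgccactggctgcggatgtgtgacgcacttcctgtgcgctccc
Ndufv2 (chr17:66101510-66101809, minus strand): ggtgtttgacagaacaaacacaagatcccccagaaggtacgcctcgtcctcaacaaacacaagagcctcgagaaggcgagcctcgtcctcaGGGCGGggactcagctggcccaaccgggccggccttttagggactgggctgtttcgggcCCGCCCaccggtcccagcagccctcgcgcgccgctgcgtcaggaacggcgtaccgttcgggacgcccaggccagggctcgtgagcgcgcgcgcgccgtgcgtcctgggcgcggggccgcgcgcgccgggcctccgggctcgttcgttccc

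Ndufa5 had its NRF1 match from base -190, counted from the start of the first listed of its 2 windows. Its other window was not searched, and which start is used in retina was not tested, so this distance holds for that annotated start alone. Ndufv2 had 2 SP1 matches. Ndufv1 had a match to none of the 6 motifs, and its G+C content was 55.7%, against 70.7% in Ndufv2. In the annotation, 10 of the 36 genes overlap another gene. Ndufa1 shares 17 bases with Rnf113a1, which had a mean of 5.94 in diabetic and 5.89 in control retinas. The span of Ndufv2 shares 10 bases with Ankrd12, which had a mean of 10.89 in diabetic and 10.80 in control retinas. Ndufb11 shares 263 bases with Rbm10, which had 6.72 in diabetic and 6.44 in control retinas. Ndufs1 shares 14704 bases with the long non-coding RNA Ino80dos, with 6.68 in diabetic and 6.54 in control retinas. The other 3 measured partners had lower means in diabetic retinas. Shmt2, which shares 32 bases with Ndufa4l2, had 7.10 in diabetic and 7.32 in control retinas. Tmco6, which overlaps Ndufa2, had 5.93 in diabetic and 5.98 in control retinas, and Tssk6, which overlaps Ndufa13, had 5.41 in diabetic and 5.44 in control retinas. How the array's probes lie in these overlaps was not given in the sources used here.

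The N module had 10 measured genes, of which 1 rose, 1 fell and 8 did not pass. Ndufv1 ran from 9.49 over a median of 9.58 to 9.66 in diabetic retinas and from 9.26 over 9.41 to 9.48 in controls. The lowest diabetic retina lay just above the highest control, so the groups did not overlap. Ndufv2 carries an iron-sulphur cluster and sits against Ndufv1. Its values ran from 9.20 over 9.29 to 9.34 in diabetic retinas and from 9.34 over 9.44 to 9.51 in controls. The groups met at the edge, where the highest diabetic array, diabetic 3, was above control 6.

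The log2 difference between these partners within an array averaged 0.28 ± 0.10 in diabetic retinas and -0.04 ± 0.10 in controls (SD, n = 6 each), for Ndufv1 minus Ndufv2. It ran from 0.17 to 0.46 in diabetic and from -0.13 to 0.15 in control retinas. All 6 diabetic arrays were above all 6 controls. This pair was chosen after both genes were seen to pass, so the difference is a description. Each gene has its own probes, so the value in an array is no ratio of transcripts, and only its shift between the groups can be read.

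Ndufs1, the large iron-sulphur subunit that completes the core of the N module, showed no difference between the means. It ran from 9.47 over 9.55 to 9.63 in diabetic retinas and from 9.40 over 9.57 to 9.64 in controls. The 95% interval of the log2 change was -0.09 to 0.09. Its difference from the other N module genes was not tested.

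All 7 accessory subunits of the N module had lower means in diabetic retinas without passing the test. Ndufs4, a subunit whose loss in mice gives a mitochondrial encephalopathy, ran from 9.06 over 9.14 to 9.23 in diabetic and from 9.11 over 9.36 to 9.48 in control retinas (log2 change -0.19 ± 0.06; adjusted p = 0.0882). Only control 5 lay within the diabetic range. Ndufv3, an accessory partner of the flavoprotein, had -0.20 ± 0.06 (adjusted p = 0.107) and Ndufs6, a zinc-binding subunit, -0.25 ± 0.09 (adjusted p = 0.137). Ndufa12 had -0.19 ± 0.07, Ndufa6 -0.15 ± 0.06, Ndufa2 -0.12 ± 0.08 and Ndufa7 -0.0075 ± 0.09, and none of these passed. In all, 8 of the 10 genes had values below 0 and the median change was -0.15.

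**Figure D3:**
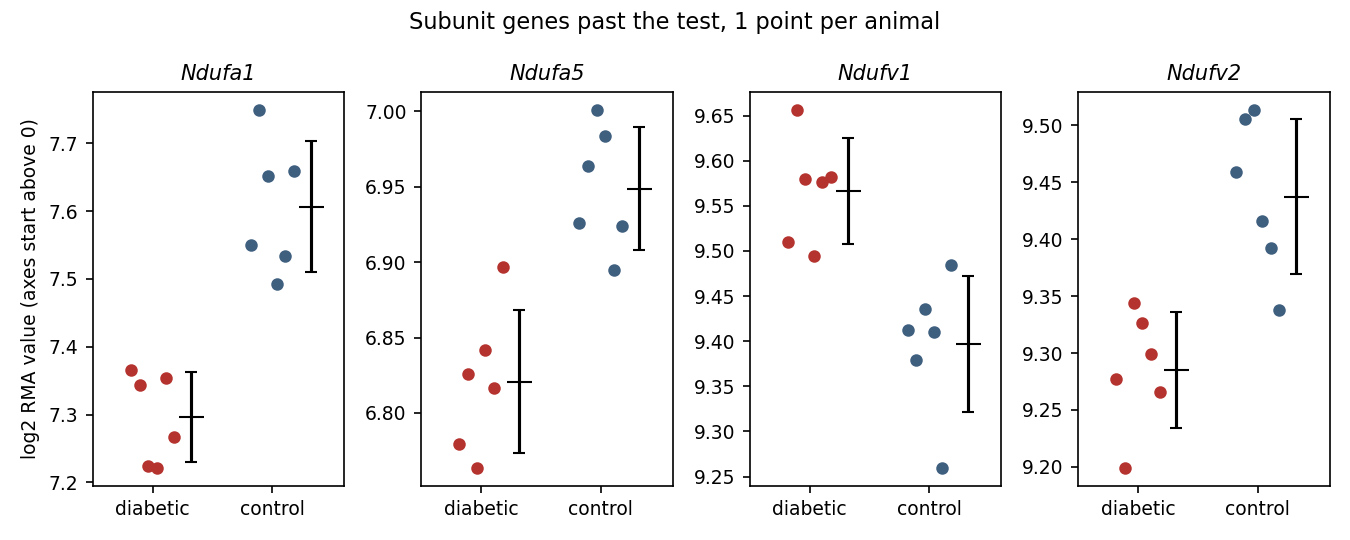
Log2 RMA values of the 4 genes past the test, with 1 point per animal, diabetic left and control right, and the mean with SD bars (n = 6 each) beside the points. Axes start above 0 and differ between panels. Ndufa1 and Ndufv1 show groups that do not overlap, and in Ndufa5 and Ndufv2 they meet at 6.90 and 9.34.

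The Q module had 5 measured genes, of which 1 fell and 4 did not pass. Ndufa5, an accessory subunit on the outside of the module, ran from 6.76 over 6.82 to 6.90 in diabetic and from 6.89 over 6.94 to 7.00 in control retinas. Diabetic 6 was level with control 5, and the other diabetic arrays lay below all controls. Ndufs7, a core subunit that lines the quinone pocket, ran from 10.17 over 10.33 to 10.40 in diabetic and from 10.22 over 10.30 to 10.51 in control retinas (log2 change -0.04 ± 0.06; 95% interval -0.16 to 0.08).

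For Ndufs8, which carries iron-sulphur clusters on the way to the quinone, the values were 8.51, 8.69 and 8.83 in diabetic and 8.55, 8.65 and 8.76 in control retinas as lowest, median and highest (0.02 ± 0.05; 95% interval -0.09 to 0.14). In both of these core genes each group's range covered most of the other's. Ndufs3, another core subunit of the module, was dim, with 5.71, 5.80 and 5.94 in diabetic and 5.57, 5.69 and 5.75 in control retinas. Its log2 change of 0.13 ± 0.04 did not pass (adjusted p = 0.110), although only 2 diabetic arrays lay within the control range. Ndufa9, at the border to the membrane arm, had 0.03 ± 0.05. The median change of the module was 0.02, with 3 of 5 above 0.

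The membrane arm had 18 measured genes, all for accessory subunits, since its core subunits are encoded by mitochondrial DNA. Of these, 1 fell, 17 did not pass, 13 had values below 0 and the median was -0.04. Ndufa1 is X-linked and encodes a subunit with a single membrane helix. It ran from 7.22 over 7.31 to 7.37 in diabetic retinas and from 7.49 over 7.60 to 7.75 in controls. All 6 diabetic arrays lay below all 6 controls. Groups did not overlap in 2 members, Ndufv1 higher and Ndufa1 lower, against 2.84% of all genes in either direction, 1.22% higher and 1.62% lower.

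Next by p were Ndufb1 with -0.18 ± 0.05 (adjusted p = 0.0768) and Ndufb10 with 0.16 ± 0.05 (adjusted p = 0.101), subunits of the distal part of the arm. They differed in opposite directions and neither passed. Ndufb1 was tight in diabetic retinas, 10.32 to 10.44, and wider in controls, 10.38 to 10.67. Ndufc1 had -0.17 ± 0.06, Ndufb2 -0.16 ± 0.07, Ndufb5 -0.14 ± 0.08, Ndufb11 -0.09 ± 0.04 and Ndufc2 -0.07 ± 0.04. Values above 0 were those of Ndufb7 (0.13 ± 0.06), Ndufa13 (0.07 ± 0.03), Ndufb3 (0.04 ± 0.05) and Ndufb9 (0.0088 ± 0.03) beside Ndufb10. Ndufa13, also known as GRIM-19, sits where the membrane arm meets the Q module. The remaining genes of the arm, Ndufa3, Ndufa8, Ndufa10, Ndufa11, Ndufb6 and Ndufb8, had changes from -0.05 to -0.0026.

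Ndufab1, the mitochondrial acyl carrier protein, is bound in both arms and had the highest value above 0, 0.20 ± 0.09, which did not pass (adjusted p = 0.234). It ran from 7.46 over 7.77 to 8.12 in diabetic and from 7.46 over 7.58 to 7.66 in control retinas, with diabetic 1 at the top and diabetic 4 level with the lowest control. Ndufa4 is now counted to complex IV despite its name, and it had 0.01 ± 0.04. Ndufa4l2, its paralog that hypoxia induces in other tissues, had 0.03 ± 0.02 at a level of 5.44 in diabetic and 5.41 in control retinas, below the array median. RefSeq lists pseudogene copies for Ndufa12, Ndufab1 and Ndufs6, and whether the probes tell such copies apart was not tested.

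By role, the 6 nuclear core subunits described here held 1 gene that rose and 1 that fell, and 3 had values above 0 and 2 below, with a median of 0.01. The 28 accessory subunits of the complex held 2 genes that fell, with 7 above 0 and 21 below and a median of -0.06. Median changes were -0.15 in the N module, 0.02 in the Q module and -0.04 in the membrane arm. No difference between these groups of genes was tested. Placing Ndufa6, Ndufa7 and Ndufs4 in the Q module and Ndufa9 in the membrane arm, as other schemes do, gave -0.15, -0.04 and -0.02 for the 3 modules, so the sign of the Q module depends on that choice.

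**Figure D4:**
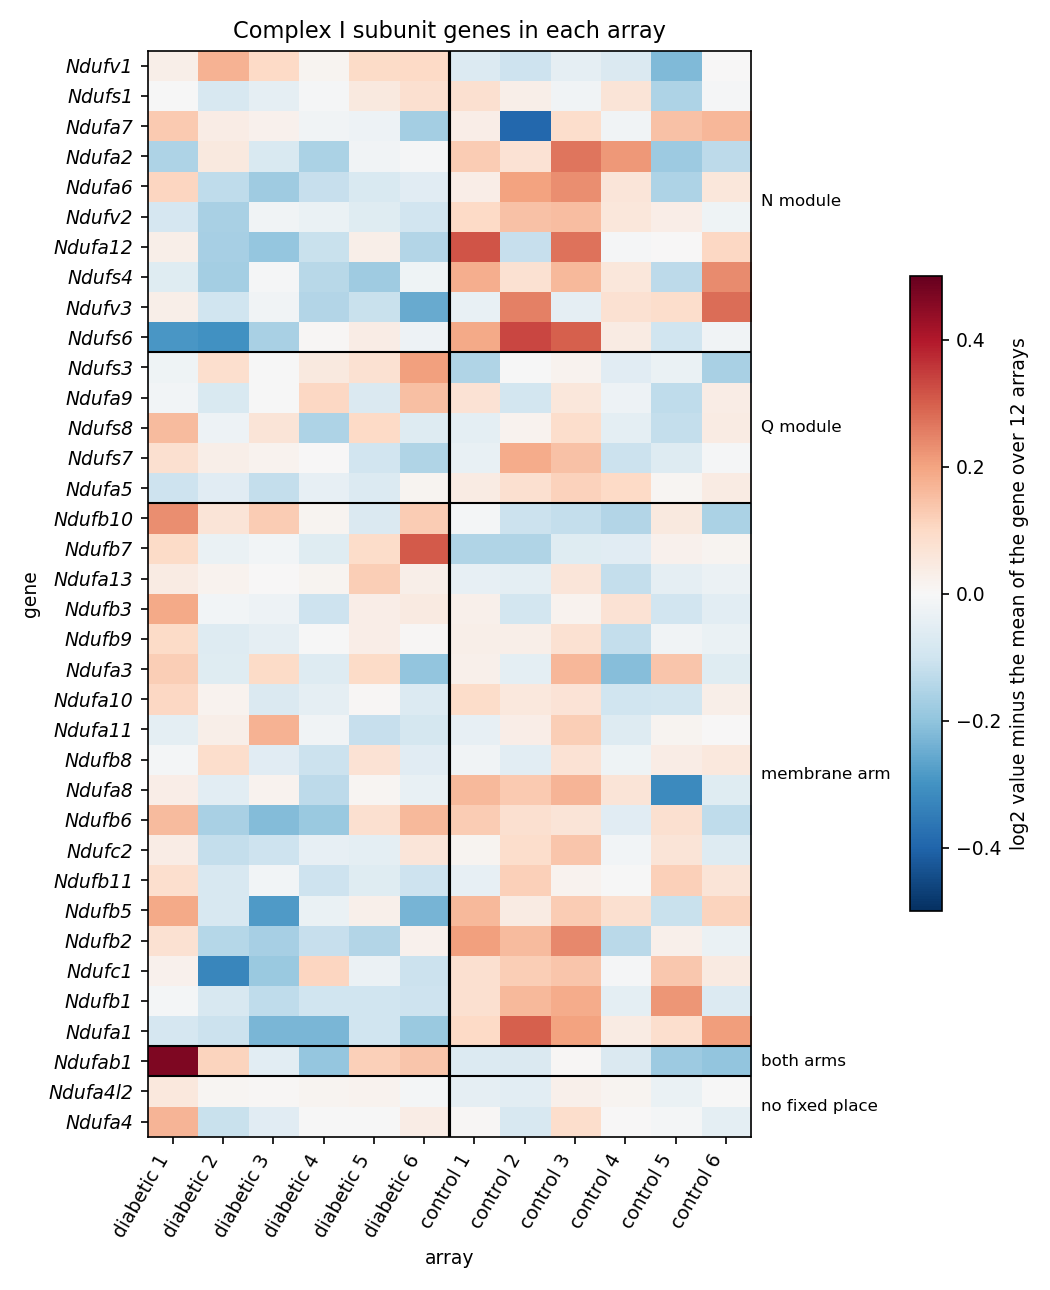
Deviation of each gene from its mean over the 12 arrays, on the log2 scale (red higher, blue lower), with diabetic arrays left of the black line, controls right of it, and genes grouped by module. Control 3 is red in 31 of 36 genes, and the median deviation of the N module lies between -0.11 and 0.01 in diabetic and between -0.12 and 0.16 in control arrays.

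Single arrays moved many of the genes together. In control 3, 31 of the 36 genes lay above their own mean over the 12 arrays, with a median deviation of 0.09. Among diabetic retinas, diabetic 1 had 24 genes above, while diabetic 4 had 9, diabetic 3 had 10 and diabetic 2 had 12. Medians in diabetic arrays ran from -0.06 to 0.04 and in controls from -0.02 to 0.09, so the groups overlapped. Without control 3 the median change over the members was -0.01 in place of -0.03, without diabetic 6 it was -0.02 and without diabetic 1 it was -0.05. The median of the N module ran from -0.18 without control 5 to -0.13 without control 3. That of the membrane arm ran from -0.05 without diabetic 1 to -0.02 without control 3. The median of the Q module was below 0 without diabetic 1 (-0.0044), 0.00072 without diabetic 6 and 0.04 without control 3, so its sign rests on diabetic 1. The spread within a group was similar, with a median SD over the members of 0.09 in diabetic and 0.08 in control retinas.

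Ndufa1 passed in each of the 12 fits that left out 1 array (adjusted p from 0.0107 to 0.0272). Ndufa5 lost its call without diabetic 3 (adjusted p = 0.0518) and without control 2 (0.0507). Ndufv1 lost it without diabetic 3, 5 or 6 and without control 1, 2, 3 or 4 (adjusted p from 0.0503 to 0.0694). Ndufv2 lost it without diabetic 1, 4, 5 or 6 and without control 1, 2 or 3 (0.0546 to 0.0664). Without control 4, 5 or 6 a further gene passed, so that 4 were lower: Ndufb1 passed without control 4 or 6 and Ndufs4 without control 5. With an intensity trend in limma's variance model, Ndufa1 was the one gene that passed. The signs of the 4 genes were the same in all of these fits.

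**Figure D5:**
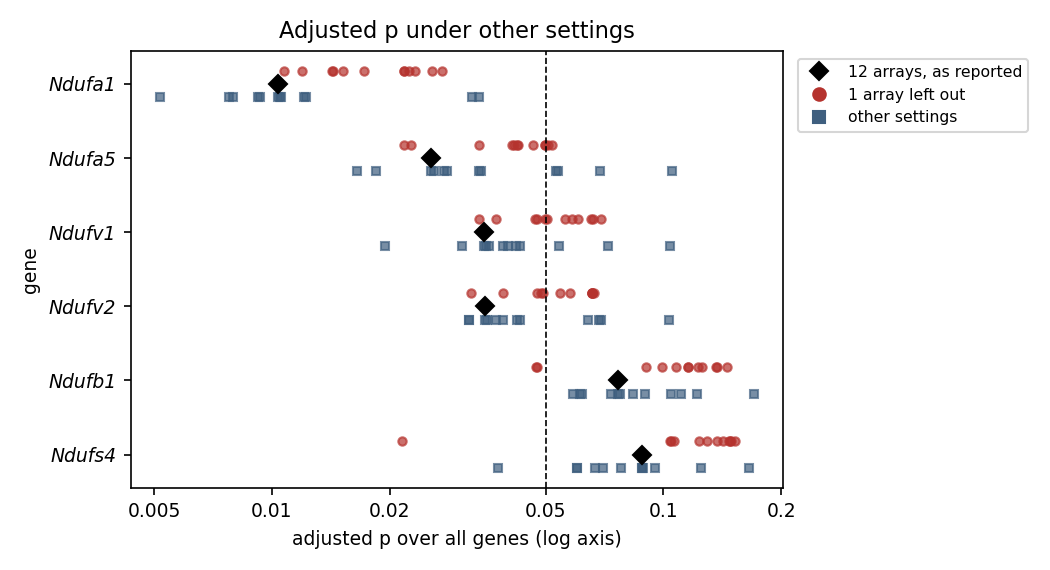
Adjusted p over all genes (log axis; the dashed line is the threshold of 0.05) for the 4 genes past the test and for Ndufb1 and Ndufs4, the next by p, from the reported fit (diamond), fits without 1 array (circles) and the other settings (squares). All symbols of Ndufa1 lie left of the line, while those of Ndufv1 and Ndufv2 fall on both sides.

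Rod genes, the defining markers of most retinal cells in mice, were bright on all arrays. The mean of 7 rod markers lay at 12.80 to 12.87 in diabetic and 12.80 to 12.89 in control retinas. Of 5 cone markers, 4 had values below 0 and 1 fell, the cone arrestin gene Arr3 (-0.30 ± 0.07, adjusted p = 0.0348 in limma). The other 4 did not pass: Pde6h had -0.25 ± 0.07 and Gnat2 -0.09 ± 0.05. The cone opsin genes were near 0, with -0.0078 ± 0.07 for Opn1mw and 0.02 ± 0.04 for Opn1sw. The mean of the 5 markers ran from 10.03 to 10.25 in diabetic and from 10.22 to 10.36 in control retinas. Cone inner segments are dense in mitochondria, and the part of cones in the changes above was not tested. Of 6 lens markers, all had values above 0, 0 passed in limma and 1 had an unadjusted p under 0.05, with means from 5.62 to 8.05 in diabetic and 5.81 to 6.80 in control retinas. Means of 5 pigment epithelium markers ran from 6.79 to 8.20 in diabetic and from 6.73 to 7.49 in control retinas. Markers of red blood cells and skeletal muscle had means from 5.22 to 5.60 in diabetic and from 5.24 to 5.60 in control retinas. These lay below the array median. In Lim2 of the lens (0.09 ± 0.03) and Ckm of muscle (0.03 ± 0.01) all 6 diabetic arrays lay above all 6 controls. Neither passed in limma, and Ckm was the 1 of 4 muscle markers with an unadjusted p under 0.05. Over all genes, groups did not overlap in 2.84%. Without diabetic 2 and diabetic 6, the arrays with the most crystallin signal, Ndufa1 and Ndufa5 passed, while Ndufv1 (0.14; adjusted p = 0.104) and Ndufv2 (-0.13; adjusted p = 0.103) did not.

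Subunit genes have short genomic spans. The median span was 7.84 kb in members and 15.5 kb over all genes. It was 24.0 kb in genes at or above the median of the gene means. Among the genes at or above the array median, 6185 of 12382 changes were below 0. Of the genes at or above the median of the gene means, a slightly different limit, those with a span up to 35 kb were taken. Among these, 54.8% of changes were below 0, with a median of -0.01. With each array's trend with span removed, the median over the members was -0.02 and that of the N module -0.13. Ndufa5 then missed the threshold (-0.11; adjusted p = 0.0532), and the other 3 genes passed.

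Among 18 measured assembly factors, which build complex I but are not part of it, 1 fell and 17 did not pass. Of the 18, 7 had an unadjusted p under 0.05 in limma, and 10 had values below 0. Over all genes, 3.24% passed and 21.0% had an unadjusted p under 0.05. At or above the array median these shares were 5.14% and 27.7%. Tmem70, known for the assembly of ATP synthase and of complex I, fell by 0.14 ± 0.03 (adjusted p = 0.0401), and Timmdc1, a factor of the membrane arm, had -0.18 ± 0.05 (adjusted p = 0.0527). Of 8 regulators of nuclear respiratory genes, 0 passed in limma, and 1 had an unadjusted p under 0.05. Gabpa had -0.12 ± 0.03 (adjusted p = 0.0796), Yy1 -0.05 ± 0.06 and Nrf1 0.0033 ± 0.05.

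The other respiratory complexes are given by their own counts, and their difference from complex I was not tested. For comparison, 3.24% of all genes passed and 21.0% had an unadjusted p under 0.05 in limma. At or above the array median the shares were 5.14% and 27.7%. In complex II, 1 of 4 genes rose, the flavoprotein Sdha (0.13 ± 0.02, adjusted p = 0.0199 in limma). Sdha was also the 1 gene there with an unadjusted p under 0.05. In complex III, 0 of 8 passed and 3 had an unadjusted p under 0.05, with Uqcrh nearest (-0.18 ± 0.05; adjusted p = 0.0938). In complex IV, 2 of 9 fell, Cox6b1 by 0.25 ± 0.05 (adjusted p = 0.0199) and Cox8a by 0.25 ± 0.06 (adjusted p = 0.0480). With these 2 counted, 4 of the 9 had an unadjusted p under 0.05. In complex V, 0 of 11 passed and 4 had an unadjusted p under 0.05, with Atp5c1 nearest (-0.20 ± 0.06; adjusted p = 0.109). Median changes were 0.03, -0.04, -0.03 and -0.03 for complexes II to V. In the same order, values below 0 were found in 1 of 4, 4 of 8, 8 of 9 and 7 of 11 genes.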

How the data were processed

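Whole retinas of 12 mice were each hybridised to 1 array as biotinylated cRNA by the Affymetrix protocol, per the labels' protocols. The deposited table held log2 values made by the authors with RMA, per the submitters' processing notes. The sources used here name neither the array nor the probe grouping nor the RMA version. Each of its 24973 lines stood for 1 Entrez gene number, and the sorted values of all arrays were identical, so a common shift of most genes is hidden. Lines were named with the platform annotation (24015) and with RefSeq of GRCm38.p6 (559 more), 399 without a name were left out, and 4 symbols had several lines, of which the brightest was kept, which left 24570 genes.

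Diabetic minus control was tested two-sided in limma 3.58.1 under R 4.3.3 (lmFit, then eBayes) on all 24570 genes, with Benjamini-Hochberg adjustment over all of them and a threshold of 0.05. There was no filter on dim genes. Errors of changes are limma's standard errors. Precision is limited by the number of arrays. Signal over background is not part of the table.

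Modules follow published schemes. Promoter sequences are from RefSeq (GRCm38.p6), searched for exact letters. Members were taken by platform symbol only, and some items are not reported here. The members and the lists were chosen with earlier results of these data known. By the naming rule, values over arrays are given for genes past the test and the core subunits, and a change for up to 3 others of smallest p per module, for the members of highest and lowest RMA value (Ndufb9 and Ndufb3, which is no order of transcript amounts) and for Ndufa4 and Ndufa4l2; other genes of the lists are named where they passed or came nearest. Remaining members, array values of genes that did not pass, Yy1, Nrf1, the YY1 stretches and the fit without diabetic 2 and 6 were added after values were seen. Alternatives covered array weights, variance models, filters, normalization, span, carried-over tissue, the replicate number and arrays left out. Beside the replicate numbers, the sample descriptions end in a code number, and the ranges of these codes do not overlap between the groups; if the codes mark cohorts, cohort and diabetes cannot be told apart.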

Additional observations from a re-analysis of the deposited data

Results flagged for a closer look

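In 74 groups of 6 arrays (36 genes and the median over them, in 2 conditions), 2 held a single array that stood apart, measured as its gap to the nearest array over the range of the group; chance flags about 1 in 20. For Ndufa13 in diabetic retinas the ratio was 0.664, with diabetic 5 high at 5.96 and the next array at 5.87. For Ndufa7 in controls it was 0.676, with control 2 low at 5.65 and the next array at 6.03. Neither gene passed the test.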

How the results depend on the processing

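Among the 36 genes, 1 was higher and 3 were lower past the test. The number higher was 0 with an intensity trend in the variance, with the replicate block and without diabetic 2 and 6 (chosen after seeing the data), and 0 to 1 without single arrays. The number lower was 1 with the intensity trend and 1 to 4 without single arrays. The count over all genes, 797, was 506 with the replicate block, 379 without diabetic 2 and 6, and 325 to 835 without single arrays. No pairing of the animals by replicate number was seen. Deviations of same-numbered arrays correlated from -0.159 to 0.17, and 1 of 6 diabetic arrays correlated best with the control of its number. A pairing with a weak effect on the values could be missed this way. With the replicate block, Ndufs4 passed and Ndufa5, Ndufv1 and Ndufv2 did not; the cause was not tested. Ndufa5 also missed the threshold with dim genes left out at the median (adjusted p = 0.0539), where 4 members could not be tested, and Ndufv2 with lens and pigment epithelium markers as covariates (0.0642). Ndufa1 passed under every setting run, with changes from -0.33 to -0.28.

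Genes that turned sign had changes near 0 and did not pass there. Under the span correction these were Ndufa11 (0.0044), Ndufb8 (0.0016), Ndufa7 (0.0069) and Ndufa3 (0.033). Ndufa3 had 0.013 with array weights, 0.045 with tissue covariates and 0.062 without diabetic 2 and 6. Ndufa7 had 0.0035 with cyclic loess, 0.027 with the covariates and 0.024 without diabetic 2 and 6, and Ndufb9 had -0.00065 with cyclic loess. Without single arrays the ranges were -0.059 to 0.00065 for Ndufa11, -0.045 to 0.037 for Ndufa3, -0.020 to 0.037 for Ndufa4, -0.087 to 0.025 for Ndufa7, -0.014 to 0.025 for Ndufb9 and -0.0044 to 0.058 for Ndufs8. The median change over the members stayed from -0.05 to -0.01 under all settings run.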
